A study of Mus musculus with 12 samples.

Results

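The genes described here are 10 p53 target genes, namely Trp53 itself and Mdm2, Ccng1, Pmaip1, Bbc3, Trp53inp1, Sesn1, Zmat3, Perp and Phlda3. They were read through the probe sets that the platform annotation gives to 1 of these symbols alone, 17 of the 45101 probe sets of the array, and they covered 9 of the 10 genes. Trp53 was not analysed here. The genes were chosen by name, with no measured value in the rule, but earlier results of these data were known when they were chosen. They were followed in C4-HD, a mouse mammary carcinoma grown in BALB/c mice that carried pellets of MPA, a progestin. At a tumour area of 50 mm2 the pellet was taken out and replaced by one of mifepristone (MFP), which blocks the progesterone receptor, at 10 mg/kg/day. The 12 arrays formed 6 groups of 2: tumours under MPA, tumours labelled as without MPA and treated with saline for 48 h, and tumours after 6 h, 12 h, 24 h and 48 h of MFP. Every MFP tumour had thus also lost its MPA, and removal without MFP was measured at 48 h only. The labels' protocol calls saline-treated tumours with MPA the control, while the source name of the saline arrays says without MPA; the source name is followed. The 6 h group rests on the sample labels, since the series text names later times only. The ages of the mice are not stated in the labels.

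The p53 protein is a transcription factor that is kept scarce by the ubiquitin ligase Mdm2, which is itself a p53 target, so that the pair forms a feedback loop. After DNA damage or other stress p53 accumulates and raises genes that halt the cell cycle, repair DNA, restrain growth signalling or open the mitochondrial route to cell death. In the mammary gland it is best known as a tumour suppressor, and several of its targets also answer to other factors, among them FOXO proteins, the p53 relative p63 and the integrated stress response. The transcript level of a target is therefore not a reading of p53 activity.

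Values are given as log2 ratios, with the averaged MPA arrays as the base, so that 0 is the MPA level and 1 is a 2-fold higher level. Such a ratio does not show how far a probe set stood above background, and levels of different genes cannot be set against each other. The ratio also fixes the MPA arrays to lie on either side of 0 for each probe set. Differences are given ± their standard error in limma, with n = 2 arrays in each group, and adjusted p-values are Benjamini-Hochberg values over the 45037 probe sets other than controls. A gene is said to have risen or fallen where this adjusted p was under 0.05. No label ties the arrays of a group to separate animals, and the spread that the p-values use is that between the deposited samples, which may be technical. The tumours were measured whole, and a change in the share of a cell type cannot be told apart from a change in RNA per cell. With ratios alone, the presence of the mammary epithelial markers could not be checked.

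Upstream sequence is shown for 3 genes: Ccng1 and Phlda3, which rose together late, and Mdm2, the feedback gene, which did not. RefSeq start sites of build GRCm38.p6 gave upstream sequence for 5 of the 9 genes measured, and Pmaip1, Trp53inp1, Zmat3 and Perp had no entry. The stretches run 5′ to 3′ in the direction of the gene and lie outside the gene's annotated span. Capitals mark each match to the half-site of the p53 consensus element, a pattern of 10 bases. The pattern, though not each match to it, reads alike on both strands, and a single half-site is not a full p53 element. The Ccng1 stretch lies at chr11:40755310-40755536 on the minus strand, the Mdm2 stretch at chr10:117710759-117711008 on the minus strand, and the Phlda3 stretch at chr1:135765835-135766084 on the plus strand.
Ccng1: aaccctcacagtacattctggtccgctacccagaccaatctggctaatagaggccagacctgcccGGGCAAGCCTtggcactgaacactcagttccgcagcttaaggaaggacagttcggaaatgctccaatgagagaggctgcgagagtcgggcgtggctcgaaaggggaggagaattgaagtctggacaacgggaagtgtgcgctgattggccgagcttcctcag
Mdm2: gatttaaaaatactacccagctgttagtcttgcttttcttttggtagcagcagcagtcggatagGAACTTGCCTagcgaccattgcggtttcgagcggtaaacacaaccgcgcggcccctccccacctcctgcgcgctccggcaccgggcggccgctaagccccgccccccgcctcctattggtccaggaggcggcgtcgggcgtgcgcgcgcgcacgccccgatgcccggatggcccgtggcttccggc
Phlda3: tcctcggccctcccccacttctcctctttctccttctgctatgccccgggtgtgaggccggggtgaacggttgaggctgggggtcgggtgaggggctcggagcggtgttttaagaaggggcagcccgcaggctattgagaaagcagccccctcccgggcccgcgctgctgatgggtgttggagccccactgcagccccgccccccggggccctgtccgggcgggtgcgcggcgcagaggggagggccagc
Ccng1 had 1 match, GGGCAAGCCT, and Mdm2 had 1, GAACTTGCCT, while Phlda3 had none in this window. Counted from the start site, the match lies at -185 to -176 in Ccng1 and at -186 to -177 in Mdm2. Of the measured genes' windows not shown, 1 of the 2 of Sesn1 held a match and none of the 3 of Bbc3 did. Of 32851 promoter windows of 300 bases 8.36% held at least 1 such match, and 0.0731% held a pair of them at most 13 bases apart, the form of a full p53 element. None of the windows of the members held such a pair. These matches are letters in a window and no measured binding, and known p53 elements of several of these genes lie inside the gene.

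At 48 h of MFP, Ccng1, Pmaip1 and Phlda3 stood higher than under MPA. Of the 17 probe sets 5 rose and none fell, where 9.25% of all probe sets passed the test, 4.37% as rises and 4.88% as falls. The 5 probe sets belong to 3 of the 9 genes, since Ccng1 has 3 of them. The median difference over the 17 probe sets was -0.04, beside -0.02 over all probe sets, and the members thus split between a few that rose and many near 0. Both 48 h arrays lay above both MPA arrays in 6 of the 17 probe sets (23.3% of all probe sets) and below them in 4 (27.8% of all probe sets).

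Ccng1 encodes cyclin G1, a p53 target that recruits a phosphatase to Mdm2. Its probe set 1420827_a_at read -0.35 and 0.28 under MPA, -0.30 and -0.37 without MPA, -0.01 and 0.20 in the 6 h tumours, -0.35 and 0.31 in the 12 h tumours, 0.17 and 0.69 in the 24 h tumours and 1.47 and 1.36 in the 48 h tumours. Both 48 h arrays lay above all 10 others, and the groups before 48 h overlapped with MPA. The rise over MPA was 1.45 ± 0.28 (limma adjusted p = 0.0141). Probe set 1450016_at rose by 1.41 ± 0.31 (limma adjusted p = 0.022) and 1450017_at by 1.47 ± 0.28 (limma adjusted p = 0.0135). The 3 probe sets gave nearly the same size of change, and over the 12 arrays their correlations with each other were 0.95, 0.80 and 0.76 (Pearson's r, as a description). They read the same RNA and are not independent measurements of the gene.

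Pmaip1 encodes NOXA, a BH3-only protein that binds MCL1 and promotes cell death. Its probe set 1418203_at read -0.10 and 0.09 under MPA, 0.02 and -0.86 without MPA, -0.33 and -0.54 in the 6 h tumours, -0.09 and -0.13 in the 12 h tumours, 0.25 and 0.33 in the 24 h tumours and 1.44 and 1.25 in the 48 h tumours. The MFP arrays ascended from 6 h to 48 h with no overlap between successive times, and the arrays without MPA lay 0.89 apart. The rise over MPA at 48 h was 1.35 ± 0.26 (limma adjusted p = 0.0135).

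Phlda3 encodes a PH-domain protein that competes with AKT for membrane lipids and so restrains it. Probe set 1449002_at read -0.40 and 0.31 under MPA, 0.29 and -0.12 without MPA, -0.45 and 0.30 in the 6 h tumours, 0.29 and 0.01 in the 12 h tumours, 0.13 and 0.04 in the 24 h tumours and 1.04 and 1.12 in the 48 h tumours. Every group before 48 h overlapped with MPA, and both 48 h arrays lay above every other array. The rise was 1.12 ± 0.30 (limma adjusted p = 0.0414), and it did not pass with array weights (limma adjusted p = 0.0641) or without the MFP 24 h arrays in the fit (limma adjusted p = 0.0507), whose exclusion was chosen after liver genes had been seen to be high in them.

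The 48 h calls rest on few arrays. Without MPA replicate 1 none of the 5 probe sets passed, with differences of 0.77 for Phlda3 to 1.25 for Pmaip1, and without MFP 48 h replicate 1 none passed either, with differences of 1.16 to 1.39. Phlda3 was also lost without MFP 48 h replicate 2 (difference 1.08, limma adjusted p = 0.141). Fitted on the 4 arrays of these groups alone none passed, with adjusted p-values of 0.0631 to 0.119, though the differences are the same by construction. With quantile normalization none passed, and the differences shrank to between 0.77 and 0.98, with adjusted p-values of 0.343 to 0.60.

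**Figure D1:**
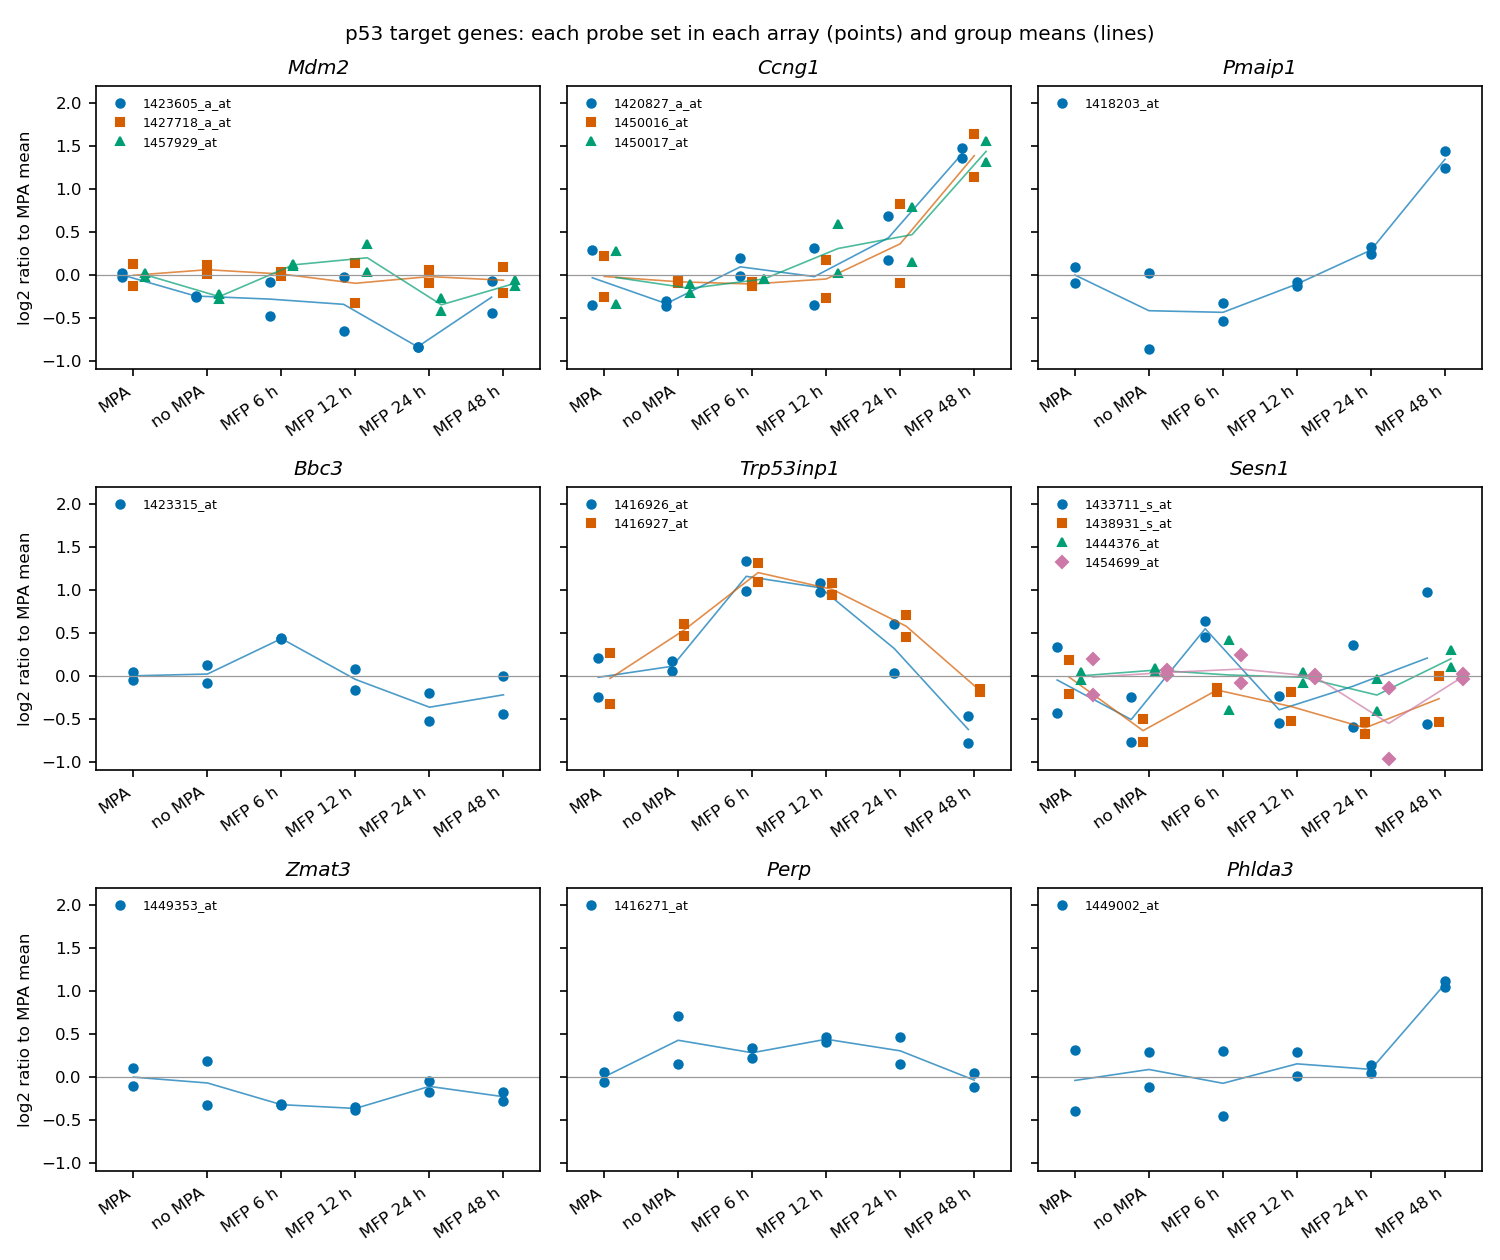
Each panel is a gene, the horizontal axis gives the 6 groups, and the vertical axis is the log2 ratio to the MPA mean; points are single arrays, lines join group means, and colours are probe sets. Ccng1, Pmaip1 and Phlda3 reach 1.04 to 1.64 at 48 h of MFP in every probe set, Trp53inp1 peaks at 6 h and 12 h, and the remaining panels show no rise at 48 h that passed the test.

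Against the tumours without MPA, the rise of Ccng1 and Pmaip1 at 48 h of MFP was also seen. This comparison holds the time since removal of MPA alike at 48 h, as far as the labels say. Of the 17 probe sets 4 rose and none fell, where 9.35% of all probe sets passed, 5.08% as rises and 4.28% as falls. The Ccng1 probe sets differed by 1.75 ± 0.28, 1.47 ± 0.31 and 1.60 ± 0.28, with limma adjusted p-values of 0.00571, 0.0173 and 0.00824. Pmaip1 differed by 1.76 ± 0.26 (limma adjusted p = 0.00413), and Phlda3 by 1.0 ± 0.30 (limma adjusted p = 0.0636). The comparison shares its MFP arrays with the one against MPA, so the 2 are not independent. Without no MPA replicate 1, and likewise without MFP 48 h replicate 1, 2 of the 4 probe sets passed, those of Pmaip1 and Ccng1 1420827_a_at. Ccng1 1450016_at was also lost without no MPA replicate 2.

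Between tumours without MPA and tumours with it, none of the 17 probe sets passed in limma, and 0% of all probe sets did. At an unadjusted p under 0.05 there were 2 of 17, beside 6.58% of all probe sets. The intervals of Ccng1 1420827_a_at (95% from -0.93 to 0.33), Pmaip1 (from -0.99 to 0.16) and Phlda3 (from -0.53 to 0.79) bound the changes these arrays leave possible.

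**Figure D2:**
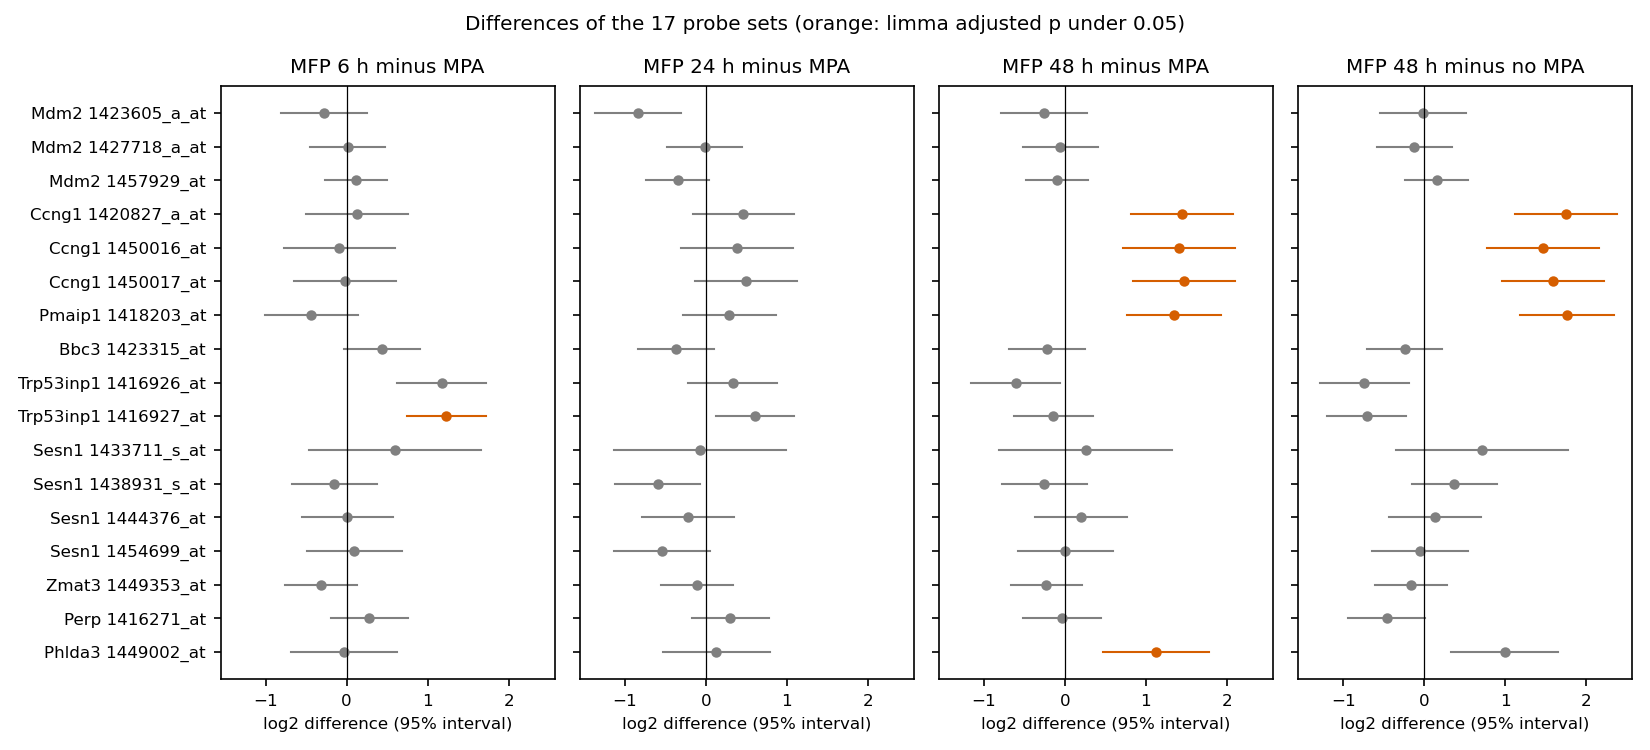
Points are log2 differences of the 17 probe sets and bars their 95% intervals in limma, in 4 comparisons with a shared horizontal axis; orange marks an adjusted p under 0.05. At 48 h the orange probe sets are those of Ccng1, Pmaip1 and, against MPA, Phlda3, at 1.12 to 1.76, while at 6 h the single orange probe set is Trp53inp1 1416927_at at 1.23.

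Trp53inp1 had the opposite time course. It encodes a stress-induced protein that helps p53 in the nucleus and takes part in autophagy in the cytoplasm, and FOXO factors can also induce it. Probe set 1416927_at read 0.27 and -0.33 under MPA, 0.60 and 0.46 without MPA, 1.09 and 1.31 in the 6 h tumours, 1.08 and 0.94 in the 12 h tumours, 0.71 and 0.45 in the 24 h tumours and -0.16 and -0.19 in the 48 h tumours. The 6 h and 12 h arrays were above both MPA arrays, and the 48 h arrays were back among them. The probe set rose at 6 h by 1.23 ± 0.22 (limma adjusted p = 0.034) and at 12 h by 1.04 ± 0.22 (limma adjusted p = 0.0336). It was the only one of the 17 to pass at either time, where 0.926% of all probe sets passed at 6 h, 0.244% as rises and 0.682% as falls, and 3.13% at 12 h, 1.3% as rises and 1.83% as falls.

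The other Trp53inp1 probe set, 1416926_at, read 0.21 and -0.24 under MPA, 0.17 and 0.06 without MPA, 0.98 and 1.34 in the 6 h tumours, 0.97 and 1.08 in the 12 h tumours, 0.61 and 0.03 in the 24 h tumours and -0.47 and -0.78 in the 48 h tumours. Its differences from MPA were 1.18 ± 0.25 at 6 h (limma adjusted p = 0.0586) and 1.04 ± 0.25 at 12 h (limma adjusted p = 0.0524), just outside the threshold, and the probe sets correlated at 0.95 over the 12 arrays. Averaged into 1 value for the gene, the differences of 1.20 and 1.04 passed with adjusted p-values of 0.0273 and 0.0254. Removal of MPA alone gave 0.13 ± 0.25 and 0.56 ± 0.22 at 48 h, neither of which passed. The 6 h call of 1416927_at was lost without MPA replicate 2 (difference 0.94, limma adjusted p = 0.162) and without either MFP 6 h array. It was also lost with quantile normalization (difference 1.41, limma adjusted p = 0.148) and on the arrays of both groups alone (difference 1.23, limma adjusted p = 0.184). The 12 h call was likewise lost without MPA replicate 2 (difference 0.74, limma adjusted p = 0.154) and without either MFP 12 h array, with quantile normalization (difference 1.03, limma adjusted p = 0.276) and on the arrays of both groups alone (difference 1.04, limma adjusted p = 0.140).

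The course under MFP was tested within the 8 MFP arrays, as the slope of the log2 ratio on the log2 of hours, a test in which no MPA array takes part. Of the 17 probe sets 6 passed, 4 with an upward and 2 with a downward slope, where 9.28% of all probe sets passed, 4.96% upward and 4.32% downward. Pmaip1 gained 0.57 ± 0.08 for each doubling of time (limma adjusted p = 0.00264), and the Ccng1 probe sets gained 0.44 ± 0.11, 0.49 ± 0.12 and 0.46 ± 0.10. Trp53inp1 fell by 0.61 in 1416926_at (limma adjusted p = 0.00478) and by 0.46 in 1416927_at (limma adjusted p = 0.00409). Phlda3 stood at 0.34 ± 0.10 (limma adjusted p = 0.0715), and passed when the slope was taken on hours (limma adjusted p = 0.0264). Without MFP 6 h replicate 1, MFP 48 h replicate 1 or MFP 48 h replicate 2 none of the 3 Ccng1 slopes passed (limma adjusted p from 0.0503 to 0.146), and without MFP 6 h replicate 2, MFP 12 h replicate 2 or MFP 24 h replicate 2 1 or 2 of them were lost. By contrast, Pmaip1 and both Trp53inp1 probe sets passed without any 1 of the 8 arrays.

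Between successive MFP times none of the 17 probe sets passed in limma. In the step from 6 h to 12 h 0% of all probe sets passed, in that from 12 h to 24 h 1.52% and in that from 24 h to 48 h 1.18%. At an unadjusted p under 0.05 the members numbered 1, 2 and 8 of 17 in these steps, beside 7.08%, 14.2% and 11.9% of all probe sets. The 8 of the last step included the differences of Ccng1 (0.98 ± 0.28 in 1420827_a_at, limma adjusted p = 0.166), Pmaip1 (1.06 ± 0.26, limma adjusted p = 0.102) and Phlda3 (0.99 ± 0.30, limma adjusted p = 0.183). They also included those of Trp53inp1 (-0.94 ± 0.25 in 1416926_at, limma adjusted p = 0.128) and Mdm2 (0.58 ± 0.24 in 1423605_a_at, limma adjusted p = 0.365). Every probe set of Ccng1 and of Trp53inp1 was among the 8, which thus stand for fewer genes. From 12 h to 24 h the arrays were apart and lower in 7 of the 17 probe sets (28.1% of all probe sets) and higher in 2 (17.5%). From 24 h to 48 h they were apart and higher in 10 (22.1% of all probe sets) and lower in 4 (17.1%). With the probe sets of a gene averaged, the last step of Ccng1 passed at 0.99 (limma adjusted p = 0.0364).

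Mdm2, which encodes the ubiquitin ligase that limits p53, passed the test in no comparison in any of its 3 probe sets. Its probe set 1423605_a_at read 0.02 and -0.02 under MPA, -0.25 and -0.24 without MPA, -0.48 and -0.09 in the 6 h tumours, -0.03 and -0.66 in the 12 h tumours, -0.84 and -0.84 in the 24 h tumours and -0.08 and -0.45 in the 48 h tumours. Every array of the other groups was below both MPA arrays, lowest at 24 h, where both arrays hold exactly the same value, as the lowest value is shared by arrays in 0.331% of all probe sets. The difference there was -0.84 ± 0.24 (limma adjusted p = 0.0696), in arrays in which liver genes had medians of 3.68 and 4.0, whose part in it was not tested. The other probe sets of the gene did not share this course: at 24 h 1427718_a_at stood at -0.02 ± 0.21 and 1457929_at at -0.35 ± 0.18, and the correlations among the 3 were 0.24, 0.26 and -0.37. At 48 h the differences were -0.26, -0.06 and -0.10, and the upper ends of their 95% intervals were 0.27, 0.41 and 0.29. Among genes with a single symbol, the probe sets most like 1423605_a_at over the 12 arrays were those of 9130024F11Rik (Pearson's r = 0.91), Nfkbil1 (0.90) and 4930524B17Rik (0.89).

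Bbc3 encodes PUMA, a BH3-only protein like NOXA and a main executor of cell death by p53. Its probe set 1423315_at read 0.04 and -0.05 under MPA, -0.08 and 0.12 without MPA, 0.44 and 0.43 in the 6 h tumours, -0.17 and 0.08 in the 12 h tumours, -0.20 and -0.53 in the 24 h tumours and 0.00 and -0.45 in the 48 h tumours. Both 6 h arrays were above all others, and at 24 h both were below MPA. The difference from MPA was 0.43 ± 0.21 at 6 h (limma adjusted p = 0.399) and -0.22 ± 0.21 at 48 h (95% interval from -0.69 to 0.25). The interval at 48 h lies below the rise of 1.35 measured for Pmaip1, though the difference between the genes was not tested.

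Sesn1 encodes sestrin 1, which restrains mTORC1 and is induced by p53 and FOXO factors. Its 4 probe sets disagreed, with correlations between them from -0.00 to 0.51. Probe set 1433711_s_at ranged from -0.78 to 0.98 and its 48 h arrays read 0.98 and -0.57, the widest gap between arrays of a group among the members. None of the 4 passed in any comparison, and at 48 h their differences from MPA lay between -0.25 and 0.26.

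Zmat3 encodes an RNA-binding zinc finger protein that acts in splicing, and Perp a membrane protein of desmosomes in stratified epithelia that p53 and p63 induce. Zmat3 1449353_at ranged from -0.38 to 0.18 over the 12 arrays, and both its 6 h arrays (-0.33 and -0.32) and its 12 h arrays (-0.36 and -0.38) were below MPA (-0.11 and 0.10). Perp 1416271_at ranged from -0.12 to 0.71, with the highest value in no MPA replicate 1. Neither Zmat3 nor Perp passed in any comparison, and at 48 h they stood at -0.23 ± 0.20 and -0.04 ± 0.22 against MPA. Of 11 probe sets for other genes of basal and stratified epithelium 1 fell and none rose at 48 h against MPA. Among all probe sets 4.88% fell and 4.37% rose in that comparison. At 24 h of MFP none of all 17 probe sets passed in limma, where 6.01% of all probe sets did. At an unadjusted p under 0.05 there were 3, Mdm2 1423605_a_at, Trp53inp1 1416927_at and Sesn1 1438931_s_at, beside 20.7% of all probe sets.

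Markers of other cells moved in the same arrays as the late risers. Of 13 macrophage probe sets 11 rose at 48 h against MPA, and of 16 fibroblast probe sets 10 rose, as did 4 of 6 neutrophil probe sets. The macrophage median was -0.93 and 0.56 under MPA, -0.77 and -0.48 without MPA, 0.33 and 0.90 in the 24 h tumours and 1.64 and 2.00 in the 48 h tumours, and the fibroblast median at 48 h was 1.17 and 1.40. Of 16 luminal epithelial probe sets 6 fell and 1 rose, with medians of -0.56 and -0.25 in the 48 h tumours. MPA replicate 1 was low and replicate 2 high in the macrophage and fibroblast medians and in all Ccng1 probe sets, Pmaip1 and Phlda3. This order is not particular to the risers. It also held in all Sesn1 probe sets, Zmat3, Perp, Mdm2 1427718_a_at and 1457929_at, and the cell division median. Mdm2 1423605_a_at, Bbc3, both Trp53inp1 probe sets and the luminal epithelial median ran the other way. The part of these cells in the rise of the 3 genes was not tested.

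The probe sets most like Ccng1 1420827_a_at over the 12 arrays were those of Arsb (Pearson's r = 0.98) and Man2b1 (0.97), which encode lysosomal enzymes, and of Fmod (0.96), which encodes an extracellular matrix protein. Their differences at 48 h from MPA were 1.05, 1.03 and 1.63. Between Ccng1, Pmaip1 and Phlda3 the correlations were 0.87, 0.77 and 0.80 over 12 arrays, and 0.48, 0.20 and 0.26 over the 10 arrays other than MFP 48 h, so the likeness of the 3 lies mostly in those 2 arrays.

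Other values differed between the groups as well. The 3′ minus 5′ difference of the Actb controls is larger in more broken RNA. It was -0.07 and 0.05 under MPA, -0.09 and 0.14 without MPA, and 0.20 and 0.13 in the 6 h tumours. The 12 h tumours had 0.34 and 0.36, the 24 h tumours 0.35 and 0.50, and the 48 h tumours 0.47 and 0.59. For Gapdh it was 0.16 and -0.12 under MPA, -0.05 and 0.04 without MPA, and 0.10 and -0.06 in the 6 h tumours. The 12 h tumours had 0.28 and 0.28 for Gapdh, the 24 h tumours 0.42 and 0.55, and the 48 h tumours 0.48 and 0.37. The time slope and the comparison of MFP 48 h with no MPA thus both run along with this difference. Exocrine pancreas genes had medians of 5.92 and 4.95 in the 6 h tumours and 5.21 and 5.54 in the 48 h tumours, where MPA had 0.75 and -1.70. Skeletal muscle genes had medians of 3.80 in MFP 48 h replicate 1 and 0.19 in replicate 2. Their part in the changes of the members was not tested.

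**Figure D3:**
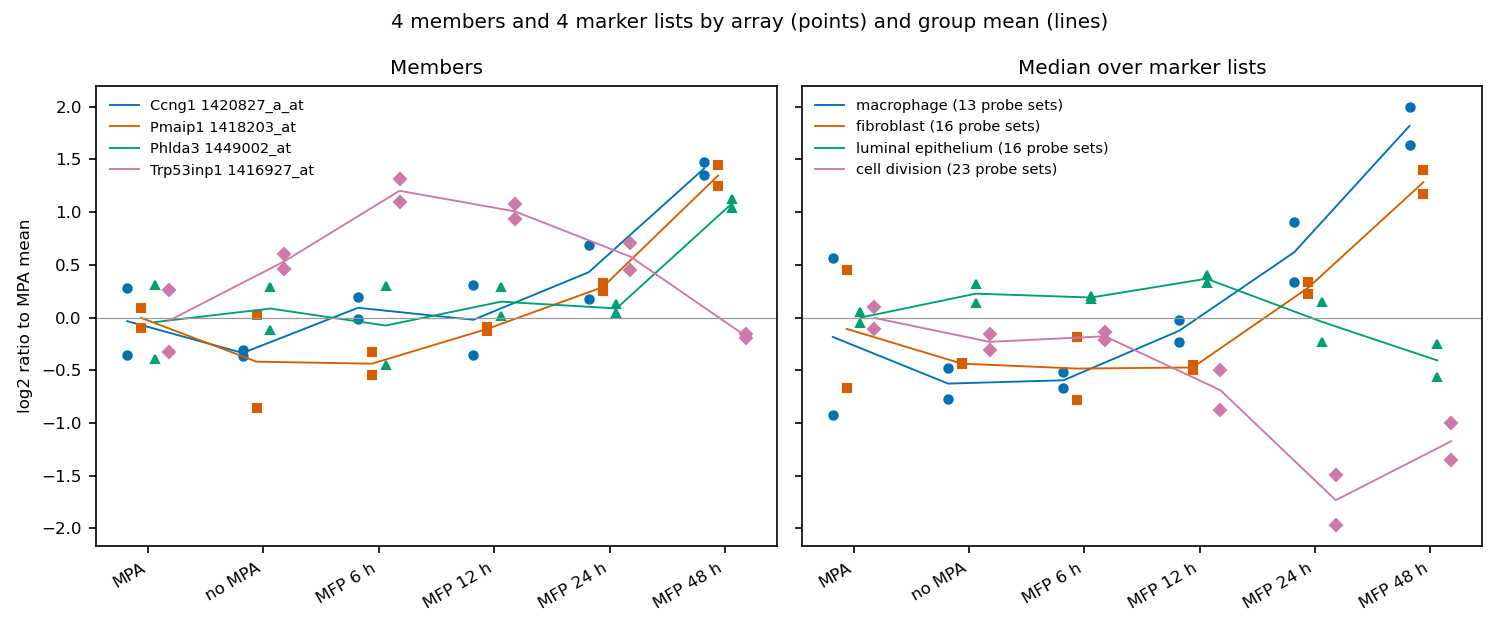
The left panel gives the log2 ratio of 4 members in each array (points) with group means (lines), the right panel the median of each of 4 marker lists on the same scale. At 48 h the macrophage and fibroblast medians reach 1.17 to 2.00 and the plotted Ccng1, Pmaip1 and Phlda3 probe sets 1.04 to 1.47, luminal and cell division medians are below 0 there, and Trp53inp1 1416927_at is highest at 6 h.

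The rest of the p53 pathway was read from lists of other targets and of p53 regulators. Their counts at 48 h against MPA are to be read beside the 4.37% of all probe sets that rose and the 4.88% that fell in that comparison. Of 25 probe sets for 14 targets that act in arrest, repair or metabolism, 1 rose at 48 h against MPA and none fell (list median -0.05). The riser was Cdkn1a, which encodes the cell cycle inhibitor p21. Its probe set 1424638_at read -0.21 and 0.18 under MPA, 0.08 and -0.47 without MPA, 0.50 and 0.59 in the 6 h tumours, 0.63 and 0.70 in the 12 h tumours, 0.55 and 0.39 in the 24 h tumours and 0.85 and 0.97 in the 48 h tumours. All 8 MFP arrays were above both MPA arrays, and the rise at 48 h was 0.92 ± 0.22 (limma adjusted p = 0.028), while the other Cdkn1a probe set, 1421679_a_at, stood at 0.34 ± 0.17 (limma adjusted p = 0.255).

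Other arrest and repair targets moved at earlier times or the other way. At 24 h Gadd45a, a growth arrest gene, rose by 1.97 ± 0.50 (limma adjusted p = 0.045), while 2 of the 3 Tigar probe sets (-0.96 ± 0.22 and -1.15 ± 0.25) and Ptprv (-1.51 ± 0.21) fell, a total of 1 rise and 3 falls among the 25 probe sets, where 6.01% of all probe sets passed. The remaining Tigar probe set, 1435929_at, stood at -0.16 ± 0.34. Tigar encodes a phosphatase that diverts sugar from glycolysis. Both probe sets of Btg2, an antiproliferative gene, had downward slopes over the MFP times, of -0.54 ± 0.10 and -0.68 ± 0.09. These were the only ones of the 25 to pass in the slope test, and they were named after their values had been seen.

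Of 24 probe sets for 11 measured cell death targets 4 rose and 1 fell at 48 h against MPA (list median 0.14). Both probe sets of Shisa5, a p53-induced membrane protein, rose, by 1.01 ± 0.24 and 0.91 ± 0.18, and at 24 h they had risen by 1.10 ± 0.24 and 1.03 ± 0.18. Bid, which encodes a BH3-only protein cut by caspases, fell by 1.25 in 1447873_x_at (limma adjusted p = 0.00691), while its other probe sets, 1417045_at and 1448560_at, stood at 0.35 ± 0.28 and 0.26 ± 0.24. The other risers, named after their values had been seen, were Siva1 1452020_a_at (0.95 ± 0.20) and Eda2r (0.78 ± 0.20). Siva1 is uncertain: its other 3 probe sets stood between -0.37 and 0.03 at 48 h, and 1 of them, 1433680_x_at, fell at 12 h by 0.93. Bax was not analysed here.

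Of 8 probe sets for 4 measured targets of the secreted and membrane class, those that rose at 48 h were both of Thbs1, which encodes thrombospondin 1, an inhibitor of vessel growth that stromal cells and platelets also make. Probe set 1450377_at read -1.58 and 0.74 under MPA, -1.50 and -1.08 without MPA, 1.94 and 1.53 in the 24 h tumours and 2.11 and 2.54 in the 48 h tumours, a difference of 2.75 ± 0.57 from MPA (limma adjusted p = 0.0171). The other, 1460302_at, differed by 3.19 ± 0.74. The gap between the MPA arrays of Thbs1 runs the same way as the macrophage and fibroblast medians of these arrays. The cell division median also ran this way, and the luminal epithelial median ran the other way. The part of macrophages and fibroblasts in the rise of Thbs1 was not tested.

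Among 60 probe sets for 21 regulators and relatives of p53, 4 fell and none rose at 48 h (list median -0.08). The falls were 3 of the 5 probe sets of Chek1, a kinase of the replication checkpoint, at -1.31 ± 0.21, -1.0 ± 0.24 and -0.85 ± 0.19, and 1 of the 3 of Atr, the kinase that activates it, at -0.72 ± 0.20. Chek1 is expressed in dividing cells. Of 23 cell division probe sets 9 fell at 48 h and 16 at 24 h, where 9.25% and 6.01% of all probe sets passed. The part of cell division in the falls of Chek1 and Atr was not tested. Bcl6, a repressor of Trp53, rose at 12 h in 1450381_a_at (1.34 ± 0.25, limma adjusted p = 0.0195), while its other probe set, 1421818_at, did not pass. None of the 4 probe sets of Mdm4, the partner of Mdm2, passed at 48 h, with differences of -0.62 to 0.03. Nor did any of the 4 of Trp63, which encodes p63, with differences of -0.19 to 0.26.

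**Figure D4:**
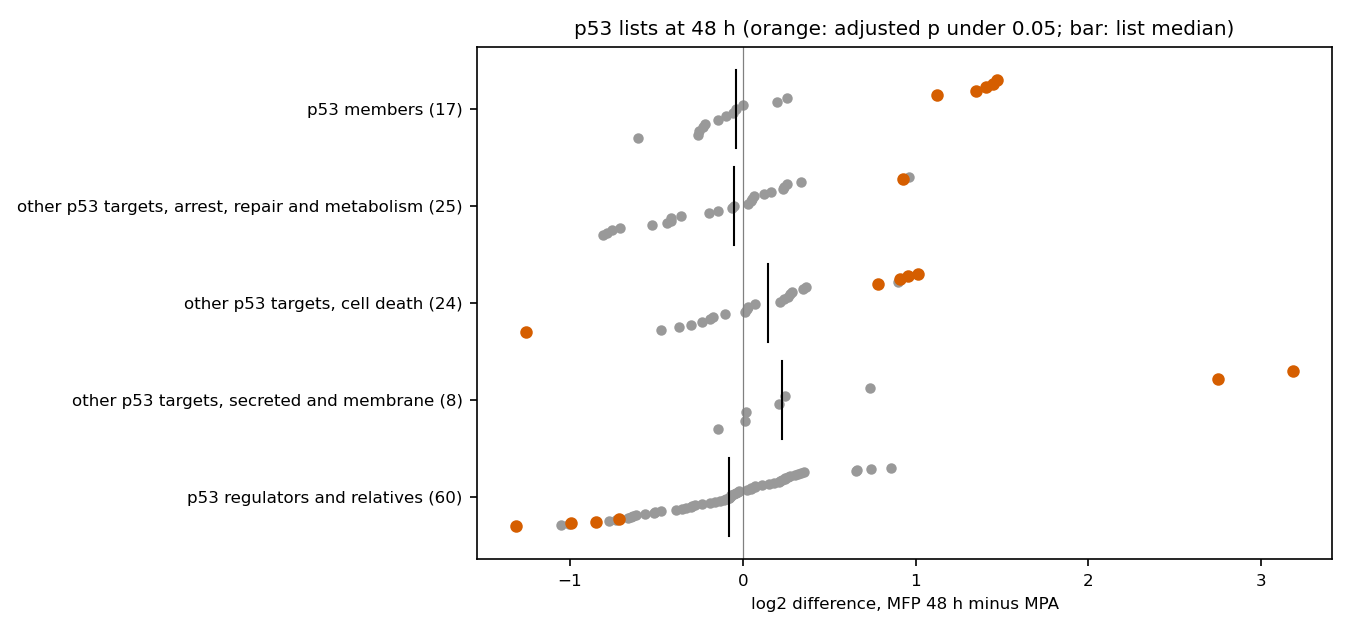
Points are the log2 differences of single probe sets between MFP 48 h and MPA in 5 lists, orange where the limma adjusted p was under 0.05, and bars are list medians; the numbers of probe sets stand beside the names. List medians lie between -0.08 and 0.23, and the orange points of the members, at 1.12 to 1.47, stand apart from the other members, which lie between -0.61 and 0.26.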

How the data were processed

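Expression was measured on 12 Affymetrix Mouse Genome 430 2.0 arrays with RNA of formalin-fixed, paraffin-embedded tumours, 200 ng in each labelling, per the labels' protocols. GCRMA is named for these arrays in the submitters' processing notes, without a version. The authors deposited log2 values. Once unlogged, the 2 MPA values of a probe set had a mean of 1 (tolerance 0.0001) in 45099 of 45101 probe sets, which makes the values log2 ratios to that mean; no header or label records this step.

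The source names gave the groups. All 45037 probe sets other than the 64 controls were tested, without a filter on low values, in limma 3.58.1 (R 4.3.3): a mean for each of 6 groups over 12 arrays, contrasts, and eBayes (6 residual and 4.38 prior degrees of freedom). The time slope used the 8 MFP arrays. The probe set was the unit because the members are probe sets. Gene names come from the platform annotation: 34945 probe sets have 1 symbol, 932 several and 9160 none here. The precision is limited by the number of arrays, and replicates of a group were not identical. The replicate numbers follow accession order and pair no samples. The fit was also run on simulated arrays with independent noise and known changes. Those arrays held no differences in tissue content or RNA quality, so that run does not bear on such differences here. List members were named where they passed without overlap of the groups' arrays, up to 3 per direction and comparison; Cdkn1a, Bax, Mdm4 and Trp63 were named in any case. For likeness the 3 probe sets of other genes with the highest Pearson correlation were taken. The members and lists were chosen with earlier results of these data known. Alternatives covered the feature table, scaling, weights, moderation, the arrays fitted and each array left out. Promoter sequences are from RefSeq, build GRCm38.p6.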

Additional observations from a re-analysis of the deposited data

How the results depend on the processing

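No paired analysis was possible because the labels carry no replicate numbers. All 17 single results that passed kept their direction under every alternative run, and 176 of their 233 alternative values also kept their side of the threshold. Of 1830 alternative values of results that had not passed, 15 passed. The count of member probe sets called at 48 h against MPA, 5, became 3 genes with 1 probe set per gene or with the mean of a gene's probe sets, and 0 with quantile normalization or with the arrays of both groups alone; leaving out each array gave 0 to 5. Against no MPA the count of 4 became 2 genes with either gene table and 0 with quantile normalization, and 2 to 4 with arrays left out. At 6 h the count of 1 became 0 with 1 probe set per gene, quantile normalization or both groups alone, 2 without both MFP 24 h arrays (added after seeing the data), and 0 to 1 with arrays left out. At 12 h the count of 1 became 0 with 1 probe set per gene, quantile normalization or both groups alone, 2 with median centring, array weights, robust moderation or without both MFP 24 h arrays, and 0 to 1 with arrays left out. In the time slope 6 became 3 genes with either gene table and 3 to 6 with arrays left out. The step from 24 h to 48 h went from 0 to 1 with gene means. The gene tables hold 9 members in place of 17. Over all probe sets the counts ranged from 2 to 473 (417 as reported) at 6 h, 0 to 1462 (1409) at 12 h, 45 to 2712 (2708) at 24 h, 18 to 4356 (4166) at 48 h, 175 to 4427 (4212) for 48 h against no MPA, 0 to 6 (0) for no MPA, 0 to 1 (0), 4 to 1377 (684) and 0 to 545 (530) for the successive steps, and 2036 to 4331 (4180) for the slope. The share of rises among all calls was 47.9% at 24 h (15.6% with quantile normalization), 47.2% at 48 h (16.7%) and 54.3% for 48 h against no MPA (34.3%). Quantile normalization gives the MPA arrays, narrow by construction, the spread of the others, and its part in the lost calls was not tested. With it the calls for 48 h against no MPA went from 4212 to 175, in a fit whose spread also takes in the MPA arrays. The slope kept 2251 rises and 1731 falls, beside 2234 and 1946 as reported. Signal over background is unknown.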

Other observations

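Gadd45a, a growth arrest gene of the p53 and stress response, read 2.59 and 3.26 in the tumours without MPA, the highest values of its probe set 1449519_at, beside 0.37 and -0.49 under MPA and 0.63 and 1.17 in the 48 h tumours. The difference of no MPA from MPA was 2.99 ± 0.50 and did not pass in limma (adjusted p = 0.247), while the fall from no MPA to MFP 48 h of -2.02 did (limma adjusted p = 0.0306). Plk2, a polo-like kinase gene that p53 induces, also fell from no MPA to MFP 48 h, by 1.49 in 1427005_at (limma adjusted p = 0.00577), where Ccng1 and Pmaip1 rose. The other Plk2 probe set, 1443780_at, did not pass there. Of the 25 arrest, repair and metabolism probe sets 1 rose and 2 fell in that comparison, where 5.08% of all probe sets rose and 4.28% fell. The riser was Cdkn1a 1424638_at, by 1.11 ± 0.22 (limma adjusted p = 0.0127). Both Thbs1 probe sets also rose there, by 4.12 ± 0.74 and 3.62 ± 0.57. Gadd45a and Plk2 were picked out after their values had been seen.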
